A study of Mus musculus with 40 samples.

Results

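Transcripts of voltage-gated and related ion channel subunits were followed in the infarcted mouse heart. The group holds every gene of the expression table whose symbol begins with Kcn (potassium channels), Cacn (calcium channels), Clcn (chloride channels and exchangers), Hcn and a digit (pacemaker channels) or Scn and a digit (sodium channels), 53 of 11450 genes. By symbol they fall into 8 voltage-gated potassium channel pore subunits, 4 auxiliary potassium channel subunits, 7 inward rectifiers, 3 channels with paired pore domains, 6 potassium channels opened by calcium or sodium, 2 pacemaker channels, 5 sodium channel pore and 2 beta subunits, 5 calcium channel pore and 5 auxiliary subunits, 5 members of the ClC family and 1 antisense RNA, Kcnq1ot1. RNA came from 20 adult mice of strain C57BL/6 with a lasting tie around a main coronary vessel, the left anterior descending artery. Each heart gave 2 libraries, 1 of its injured region and 1 of a remote, uninjured one, with 4 mice at each of 5 times (day 3, 7, 14, 21 or 42 after the ligation), for 40 libraries in all. The injured group is the fibrotic scar tissue of the infarcted wall. The labels give no allele or treatment beyond the strain and the ligation. All animals carry the infarct, so the uninjured region is remote myocardium of an infarcted heart, and no heart without ligation is part of the comparisons. Tissue pieces were sequenced whole, with every cell type they held. The mice of day 42 have labels starting with B and all earlier mice labels starting with A, so day 42 and any difference between these 2 sets of animals cannot be told apart.

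Each heartbeat follows an electrical sequence that these proteins carry out. Sodium channels start the action potential, calcium channels sustain its plateau and trigger contraction, and a set of potassium channels ends it and holds the resting potential. In the working ventricle most of these channels belong to cardiomyocytes, whereas fibroblasts, smooth muscle, endothelium, macrophages and nerves each use smaller sets of their own.

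Levels are in the authors' RPKM, which are reads divided by gene length and a library size, so values of different genes can be set side by side per length. Whole reads worked back from them summed to 10087006 to 20434665 per library, and all 53 channel genes gave whole reads. These totals cover genes of the table only and were not proportional to the library sizes that the RPKM imply. Relative to the first library, total over implied size had a median of 1.001 in injured and 1.243 in uninjured libraries. How the authors set the library size is not given. Tests were run with limma on log2(RPKM + 1) for genes that reached 1 RPKM in 4 libraries or more, which kept 49 of the 53. A difference is given as the injured minus the uninjured value on that scale with its standard error, and a gene is called at an adjusted p under 0.05 over the 11390 genes tested. The scale understates the change of genes near or below 1 RPKM. The tissue labels were checked against marker genes. The summed level of 12 cardiomyocyte markers was 969 to 2076 RPKM in injured and 22782 to 26021 RPKM in uninjured libraries at day 3, and 3254 to 5652 RPKM in injured against 21017 to 23575 RPKM in uninjured libraries at day 42, with none of the 12 at 0. The 8 macrophage and monocyte markers summed to 416 to 636 RPKM in injured and 117 to 129 RPKM in uninjured libraries at day 7, and the 8 fibroblast markers to 3290.3 to 4025 RPKM in injured against 532 to 698 RPKM in uninjured ones. In whole tissue, fewer cells of a type and less RNA per cell cannot be told apart, and the part these cell types had in the results below was not tested.

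Of the 49 tested channel genes, 32 were lower and 13 higher in the injured region at day 3, where 39.6% of all genes tested were lower and 44.1% higher. The split was 30 lower and 17 higher at day 7 (all genes 38.7% and 43.6%), 30 and 17 at day 14 (40.5% and 42.4%), 29 and 19 at day 21 (41.0% and 43.1%) and 29 and 18 at day 42 (38.7% and 40.5%). The median difference of the 49 was -1.32, -1.16, -0.92, -0.86 and -0.97 on days 3, 7, 14, 21 and 42, beside 0.06, 0.05, 0.03, 0.03 and 0.03 for all genes. Lower on all 5 days were 29 channel genes, against 28.8% of all genes, and higher on all 5 days were 12, against 28.6%. Another 5 were higher on some days, Cacna1g was lower on some days, and Scn7a and Cacnb1 were lower on 1 day and higher on later ones, a pattern of 9.90% of all genes. Every tested channel gene was called on at least 1 day, as were all but 1.75% of all genes. After rescaling by recovered read totals, the median difference of all genes was shifted up to 0.36 at day 3, and 31 channel genes were lower and 15 higher.

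**Figure D1:**
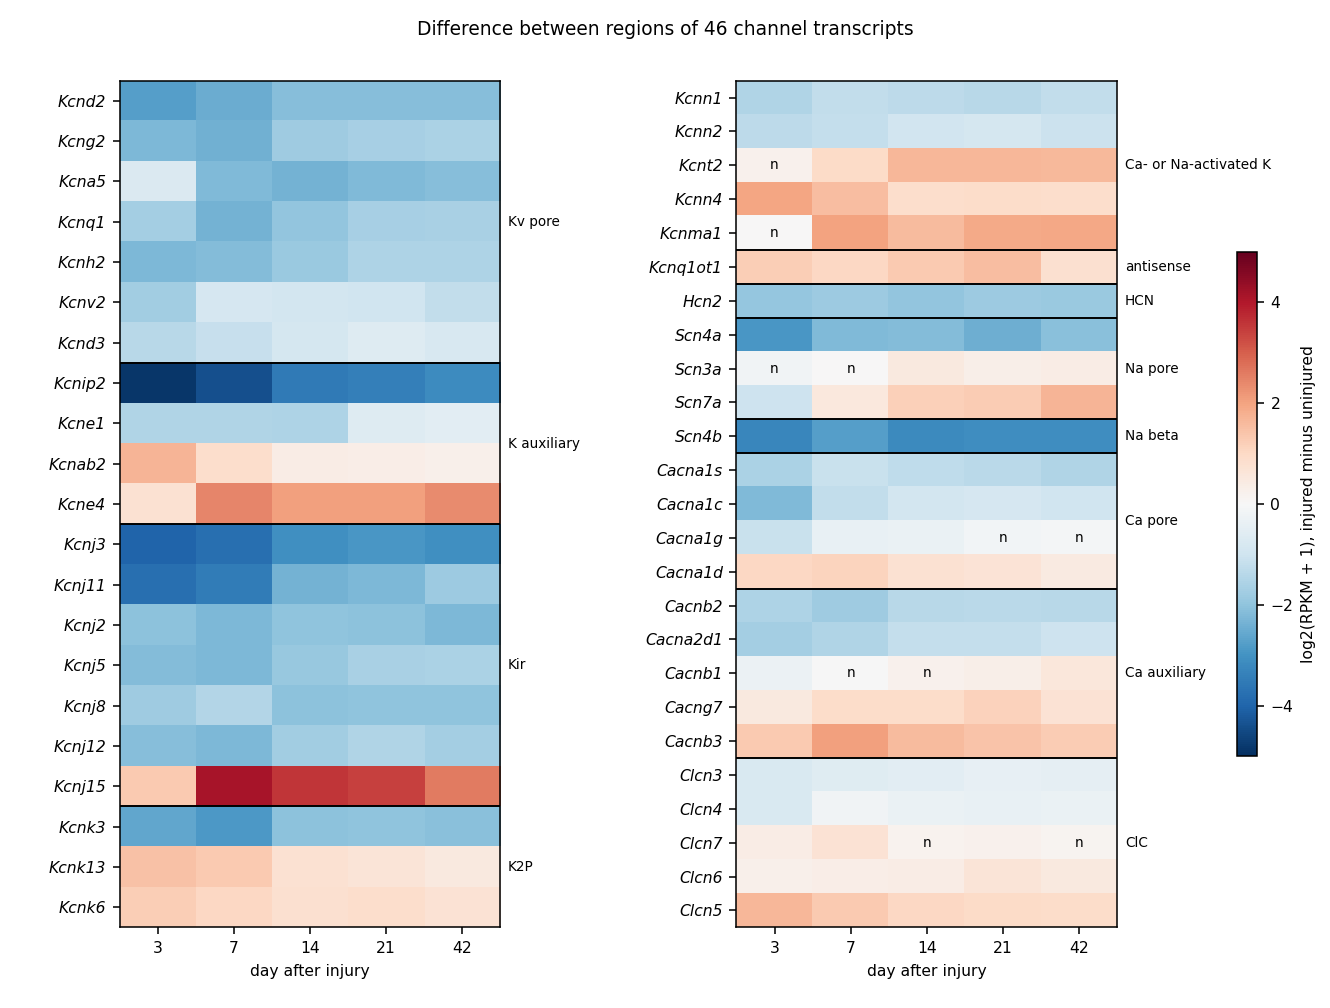
Difference between regions on the log2(RPKM + 1) scale, injured minus uninjured, for 46 of the 49 tested channel genes (rows, grouped by subfamily) on the 5 days (columns); blue is lower and red higher in the injured region, and a cell with the letter n did not pass the test. The voltage-gated potassium pore subunits drawn are blue throughout, Kcnip2 at day 3 is the deepest blue at -4.86, and Kcnj15 at day 7 is the deepest red at 4.12.

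Promoters are shown for 4 channel genes with large differences between regions in opposite directions: Kcnip2 and Kcnj3, lower on all 5 days, and Kcnj15 and Kcnma1, higher from day 3 and from day 7. Each runs from 250 bases before to 50 bases after the annotated start, from RefSeq on GRCm38.p6, in the direction of transcription, with CpG pairs in capitals.
Kcnip2 promoter, chr19:45816014-45816313, minus strand: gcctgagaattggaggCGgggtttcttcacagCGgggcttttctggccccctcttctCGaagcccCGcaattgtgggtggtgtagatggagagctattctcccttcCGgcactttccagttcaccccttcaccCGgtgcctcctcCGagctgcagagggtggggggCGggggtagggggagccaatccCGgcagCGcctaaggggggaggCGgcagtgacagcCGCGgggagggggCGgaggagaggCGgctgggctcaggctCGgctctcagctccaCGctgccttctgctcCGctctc
Kcnj3 promoter, chr2:55435720-55436019, plus strand: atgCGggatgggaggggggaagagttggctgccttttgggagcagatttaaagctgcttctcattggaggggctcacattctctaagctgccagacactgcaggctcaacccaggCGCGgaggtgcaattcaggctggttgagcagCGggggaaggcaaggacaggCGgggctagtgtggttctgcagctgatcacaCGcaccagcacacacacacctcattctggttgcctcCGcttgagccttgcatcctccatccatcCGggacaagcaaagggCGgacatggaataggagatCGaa
Kcnj15 promoter, chr16:95257308-95257607, plus strand: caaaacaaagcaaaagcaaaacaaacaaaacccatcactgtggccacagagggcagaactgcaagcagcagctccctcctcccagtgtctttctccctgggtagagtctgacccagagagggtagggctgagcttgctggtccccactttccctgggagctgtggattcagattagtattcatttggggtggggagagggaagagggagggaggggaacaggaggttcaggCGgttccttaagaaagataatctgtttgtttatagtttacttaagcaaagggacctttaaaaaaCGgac
Kcnma1 promoter, chr14:24004156-24004455, minus strand: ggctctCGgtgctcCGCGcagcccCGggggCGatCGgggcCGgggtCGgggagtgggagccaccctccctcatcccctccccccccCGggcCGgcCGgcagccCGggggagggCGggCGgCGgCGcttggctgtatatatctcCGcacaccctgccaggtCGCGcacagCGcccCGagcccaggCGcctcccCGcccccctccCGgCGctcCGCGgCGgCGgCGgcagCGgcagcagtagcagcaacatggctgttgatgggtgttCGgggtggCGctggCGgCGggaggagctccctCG
The windows hold 18 CpG pairs for Kcnip2, 10 for Kcnj3, 2 for Kcnj15 and 36 for Kcnma1. Promoters were found for 37 of the 53 channel genes, 50 windows in all because some genes have several starts. Their median was 11.5 CpG pairs, with 15 over the 26 windows of genes lower on every day and 9 over the 16 windows of genes higher on every day, beside 7 over all 32851 windows of that table. On either strand, the TEAD motif CATTCC was found in 9 of the 50 windows (14.7% of all windows), the GATA motif AGATAA in 2 (11.2%), one of them Kcnj15, and the AP-1 motif TGANTCA in 0 (7.81%). The MEF2 motif and the CArG box, the serum response factor motif, were each found in 0 of the 50, and in 1.86% and 1.63% of all windows.

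All 8 voltage-gated potassium channel pore subunits were lower in the injured region on all 5 days, with a subfamily median between -2.19 and -1.56. They include the pores of the fast transient outward current, Kcnd2 (Kv4.2) and Kcnd3 (Kv4.3), the delayed rectifier pores Kcna5 (Kv1.5), Kcnq1 and Kcnh2 (ERG), and the silent subunits Kcng2 and Kcnv2, which form channels only together with other pores. Kcnd2 (chromosome 6, 21215503 to 21729805) stood at 0.56, 0.868, 0.315 and 1.24 RPKM in the 4 injured libraries of day 3, against 12, 9.73, 9.87 and 10.8 RPKM in the uninjured ones. The highest injured value lay far below the lowest uninjured one, and the difference was -2.76 ± 0.13 at day 3 and -2.14 ± 0.13 at day 42 (limma adjusted p at most 4.55e-12 over the 5 days). Kcnd3 was expressed at a lower level, 0.357 to 1.04 RPKM in injured against 1.76 to 2.95 RPKM in uninjured group means, and its differences were -1.41, -1.16, -0.86, -0.66 and -0.79 on the 5 days, closest to 0 at day 21. Kcng2 had the highest level of the 8, with means of 6.18, 3.03, 6.73, 7.92 and 7.58 RPKM in the injured region on days 3, 7, 14, 21 and 42, against 32.5, 20.1, 25.5, 27.1 and 24.5 RPKM in the uninjured region.

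4 of the 8, Kcna5, Kcnq1, Kcng2 and Kcnh2, fell further in the injured region at day 7, a step at which 32.7% of all genes fell. The call of Kcnh2 at this step was lost without day 3 mouse A4, A5 or A8 or day 7 mouse A7 (limma adjusted p 0.0578, 0.0634, 0.0942 and 0.0778). Kcna5 was at 3.53, 3.62, 4.24 and 4.56 RPKM in the 4 injured libraries of day 3, against 7.18, 7.01, 5.66 and 8.95 RPKM in the uninjured ones. The groups did not overlap, but the difference of -0.71 ± 0.10 was the smallest among the 8 at day 3. Kcna5 later stood at 0.587, 1.2, 1.43 and 1.23 RPKM in the 4 injured libraries of day 7, against 7.18, 12.6, 7.46 and 8.39 RPKM in the uninjured ones, a difference of -2.22 ± 0.10 (limma adjusted p 2.37e-14). Kcnq1, the pore of the slow delayed rectifier, fell in the injured region to 1.67 ± 0.22 RPKM at day 7, against 4.08 ± 0.681 RPKM at day 3 (SD, n = 4), a step of -0.92 ± 0.14 (limma adjusted p 1.62e-05). Kcnh2 differed by -2.23, -2.16, -1.84, -1.55 and -1.54 on the 5 days in turn. Kcnv2 was close to nothing in the scar, with 1, 0, 1 and 2 recovered reads in the 4 injured libraries of day 7, against 65, 84, 92 and 72 in the uninjured ones. A count of 0 allows up to 3 reads, a limit that covers counting error only.

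Among the auxiliary potassium channel subunits, Kcnip2 and Kcne1 were lower and Kcne4 and Kcnab2 higher in the injured region on all 5 days. Kcnip2 (chromosome 19, 45791839 to 45816061) encodes KChIP2, the calcium-binding subunit that brings Kv4 pores to the cell surface. Kcnip2 was at 0.235, 0.514, 0.196 and 1.04 RPKM in the 4 injured libraries of day 3, against 39.5, 45.1, 36.3 and 45.9 RPKM in the uninjured ones. The highest injured value was 1.04 RPKM and every uninjured value was above 30 RPKM. It was at 2.82, 4.3, 1.81 and 1.83 RPKM in the 4 injured libraries of day 42, against 31.2, 29.1, 31.1 and 29.2 RPKM in the uninjured ones, and the groups remained apart. On the log2(RPKM + 1) scale its differences were -4.86, -4.38, -3.54, -3.42 and -3.13 on the 5 days. These were the lowest of any channel gene at every time on that scale (limma, highest adjusted p 2.67e-13). The scale understates low genes. As a share of the uninjured mean, the injured mean of Scn4b was below that of Kcnip2 on all 5 days. The shares were 1.03% and 1.19% at day 3, and 1.42% and 8.91% at day 42. Kcne1, the minK partner of Kcnq1, differed by -1.49, -1.5, -1.55, -0.64 and -0.52, and its groups overlapped on days 21 and 42. The call at day 42 was lost when the mouse was not a term of the model (limma adjusted p 0.0667).

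**Figure D2:**
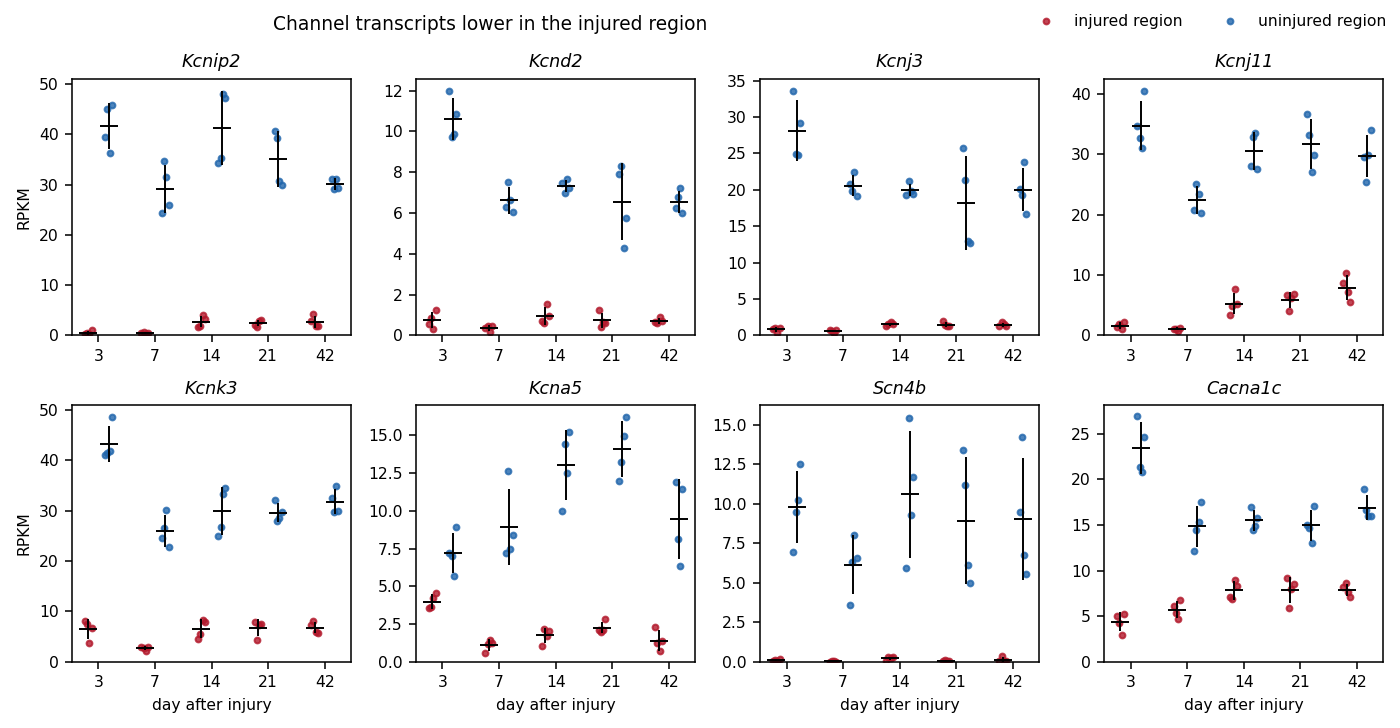
RPKM of 8 channel genes that were lower in the injured region, by day after injury; points are single libraries, red for injured and blue for uninjured tissue, drawn side by side on each day, and black bars give the mean and SD of 4 mice. Kcnip2 and Scn4b stay near the axis in the injured region on all days, whereas Kcna5 in the injured region is higher at day 3 (3.99 RPKM) than at day 7 (1.11 RPKM).

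Kcne4, an auxiliary subunit that damps Kcnq1 channels, stood at 3.5, 4.2, 5.19 and 3.64 RPKM in the 4 injured libraries of day 3, against 1.87, 1.68, 2.32 and 2.35 RPKM in the uninjured ones. The values were 16.5, 15.7, 13.7 and 14.1 RPKM in the 4 injured libraries of day 7, against 1.61, 2.78, 1.64 and 2.01 RPKM in the uninjured ones. The groups were apart on both days, and the difference was 0.74 ± 0.12 at day 3, 2.42 ± 0.12 at day 7 and 2.37 ± 0.12 at day 42 (limma adjusted p at most 9.05e-06). Kcnab2, a cytoplasmic beta subunit of Kv1 channels, took the opposite course in time. Its injured means were 3.98, 2.05, 0.857, 0.899 and 0.765 RPKM on the 5 days, against 0.526, 0.627, 0.449, 0.508 and 0.466 RPKM in the uninjured region. The difference was 1.7 ± 0.08 at day 3 and 0.27 ± 0.08 at day 42, and with quantile normalization it turned to -0.17, -0.18 and -0.16 on days 14, 21 and 42.

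Of the 7 inward rectifiers, which hold the resting potential or link it to metabolism and to acetylcholine, 6 were lower on all 5 days and Kcnj15 was higher on all 5 days. Kcnj3 (chromosome 2, 55435970 to 55598145) and Kcnj5 encode the subunits of the acetylcholine-activated channel. Kcnj3 was at 0.867, 1.04, 0.34 and 1.0 RPKM in the 4 injured libraries of day 3, against 33.6, 24.9, 24.8 and 29.1 RPKM in the uninjured ones. No injured value came near the uninjured ones. The differences of Kcnj3 were -4.01, -3.77, -3.06, -2.91 and -3.08 on the 5 days and those of Kcnj5 were -2.15, -2.26, -1.91, -1.62 and -1.59. Kcnj2 (Kir2.1) and Kcnj12 (Kir2.2), the pores of the classical inward rectifier current, differed by -2.06, -2.26, -2.02, -2.06 and -2.24 and by -2.12, -2.23, -1.74, -1.49 and -1.7 (limma adjusted p at most 5.05e-10 over these 4 genes). Exons of Kcnj3 share up to 1080 bases with a long noncoding RNA on the opposite strand, and the strand setting of the counting is not given in the sources used here.

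The pores of the ATP-sensitive potassium channels took separate courses. Kcnj11 (Kir6.2; chromosome 7, 46093953 to 46100764), the pore of the ventricular sarcolemmal channel, stood at 1.12, 1.11, 0.756 and 1.29 RPKM in the 4 injured libraries of day 7, against 20.8, 25.1, 23.5 and 20.3 RPKM in the uninjured ones. It stood at 8.69, 10.3, 7.16 and 5.49 RPKM in the 4 injured libraries of day 42, against 29.6, 25.5, 29.9 and 34.1 RPKM in the uninjured ones. The groups were apart on both days, and the difference narrowed to -1.81 ± 0.16 at day 42, against -3.5 ± 0.16 at day 7. Kcnj8 (Kir6.1), the pore found in vascular smooth muscle and pericytes, was at 5.2 to 6.39 RPKM in injured group means on all 5 days, against 19.4 to 26.2 RPKM in the uninjured region. Its difference was -1.47 ± 0.11 at day 7 and -2.03 ± 0.11 at day 42, and the F test over the 5 days within the injured region did not pass for it (limma adjusted p 0.479). The sulfonylurea receptors that complete these channels, Abcc8 and Abcc9, were both lower on all 5 days, by -1.94 ± 0.11 and -2.34 ± 0.11 at day 7. Of 5 measured pericyte markers, which are background for Kcnj8, 3 were higher and 2 lower at day 7, and their sum was 209.5 to 239 RPKM in injured and 285 to 344 RPKM in uninjured libraries. All 6 smooth muscle markers were higher at day 7, and their sum was 419 to 852 RPKM in injured and 96.2 to 134 RPKM in uninjured libraries. The part of pericytes and of smooth muscle in the values of Kcnj8 was not tested.

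Kcnj15 (chromosome 16, 95257558 to 95300260), the inward rectifier Kir4.2, had the largest rise in the injured region between days 3 and 7 on the log2(RPKM + 1) scale, which understates that of lower genes such as Kcnma1. It was at 2.59, 1.82, 1.78 and 2.77 RPKM in the 4 injured libraries of day 3, against 0.228, 0.308, 0.311 and 0.344 RPKM in the uninjured ones. The values were 28.6, 25.9, 21 and 19.3 RPKM in the 4 injured libraries of day 7, against 0.379, 0.498, 0.30 and 0.449 RPKM in the uninjured ones. The injured mean of day 7 was near the uninjured means of Kcnj11 and Kcnj3 on that day, 22.4 and 20.5 RPKM, and no uninjured value of Kcnj15 reached 1 RPKM on any day. Means in the injured region were 2.24 ± 0.515, 23.7 ± 4.29, 15.6 ± 5.03, 13.3 ± 2.85 and 6.58 ± 2.51 RPKM on days 3, 7, 14, 21 and 42 (SD, n = 4 each), against 0.297, 0.406, 0.335, 0.332 and 0.215 RPKM in the uninjured region. The differences were 1.31, 4.12, 3.58, 3.4 and 2.58 (limma adjusted p at most 4.43e-07), and within the injured region the steps of 2.93 ± 0.24 at day 7, -0.62 ± 0.24 at day 14 and -0.95 ± 0.24 at day 42 each passed (limma adjusted p at most 0.0465). The step at day 14 was the least stable of these, since it did not pass in 16 of 30 alternative fits, 12 of them with 1 mouse left out (adjusted p up to 0.177). Several marker lists also had higher sums in injured libraries at day 7 than at day 3. Markers of macrophages and monocytes were at 416 to 636 RPKM at day 7 and 305 to 401 RPKM at day 3. Smooth muscle markers were at 419 to 852 RPKM and 262 to 355 RPKM. Fibroblast markers were at 3290.3 to 4025 RPKM and 995 to 1346 RPKM, and pericyte markers at 209.5 to 239 RPKM and 102 to 123 RPKM. Neutrophil and endothelial markers had lower sums at day 7 than at day 3. The part of these cell types in the Kcnj15 values was not tested. Exons of Kcnj15 overlap an antisense transcript by up to 333 bases.

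**Figure D3:**
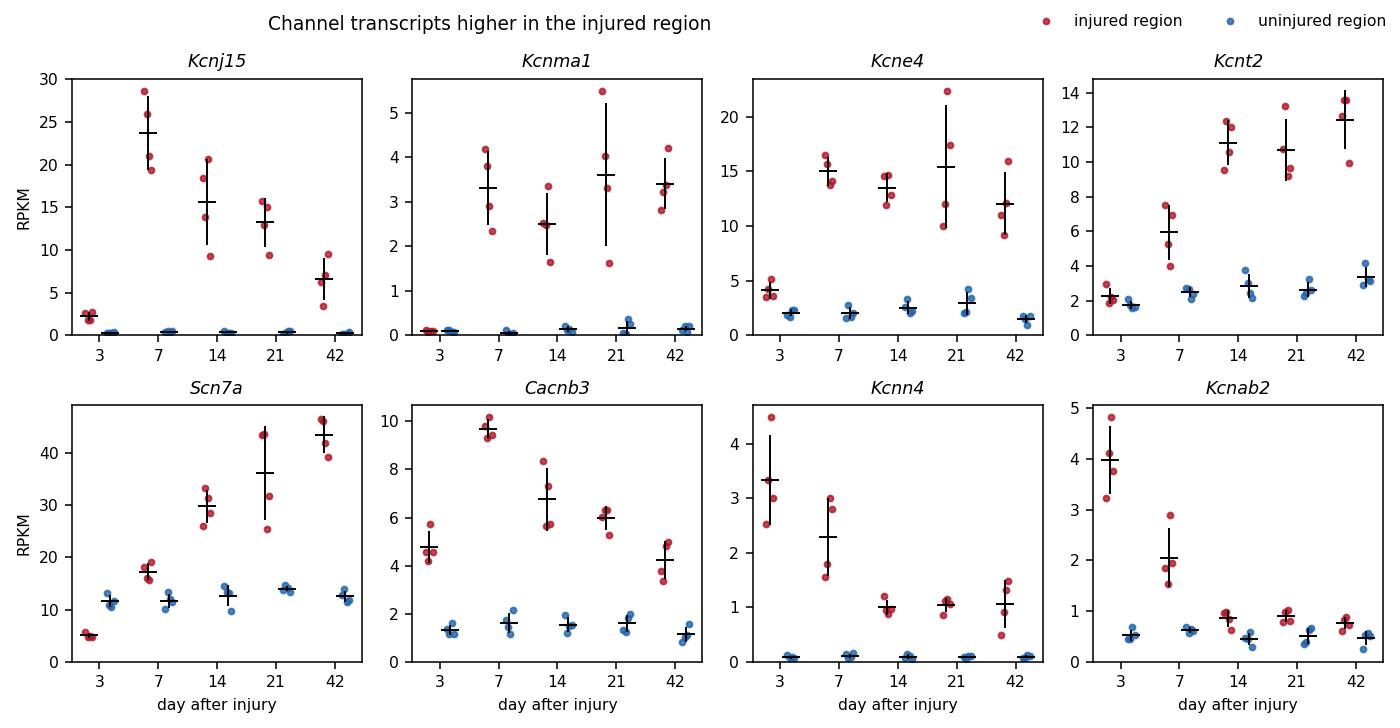
RPKM of 8 channel genes that were higher in the injured region on at least 1 day, by day after injury; points are single libraries, red for injured and blue for uninjured tissue, drawn side by side on each day, and black bars give the mean and SD of 4 mice. Kcnn4 and Kcnab2 are highest at day 3, Kcnj15 and Cacnb3 at day 7, and Scn7a and Kcnt2 at day 42, while Kcnma1 is near 0 in both regions at day 3.

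Of the 3 potassium channels with paired pore domains, which carry background potassium currents, Kcnk3 (TASK-1) was lower and Kcnk6 and Kcnk13 were higher on all 5 days. Kcnk3 (chromosome 5, 30588170 to 30625271) was at 2.97, 2.79, 2.17 and 2.87 RPKM in the 4 injured libraries of day 7, against 24.5, 26.7, 30.2 and 22.8 RPKM in the uninjured ones. The groups lay far apart, with a difference of -2.87 ± 0.14 (limma adjusted p 3.77e-14), and the injured mean was 6.56 RPKM at day 14. Kcnk6 had injured means of 5.74, 5.38, 4.38, 4.85 and 4.31 RPKM, against 1.84, 2.1, 2.1, 2.18 and 2.21 RPKM in the uninjured region, a difference of 1.25 ± 0.08 at day 3 and 0.74 ± 0.08 at day 42. Kcnk13 (THIK-1), known as a background channel of microglia in the brain, differed by 1.45 ± 0.13 at day 3 and by 0.49 ± 0.13 at day 42, when its groups overlapped. With quantile normalization its calls on days 14, 21 and 42 were lost (limma adjusted p 0.113, 0.406 and 0.732).

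The potassium channels opened by calcium or sodium split by member. Kcnn1 and Kcnn2, small-conductance channels, were lower on all 5 days, by -1.49, -1.21, -1.29, -1.39 and -1.21 and by -1.32, -1.21, -0.94, -0.88 and -1.09, and Kcnn3 was under the filter. Kcnn4 (chromosome 7, 24370263 to 24386690), the intermediate-conductance channel of blood and immune cells and of activated fibroblasts, was at 2.53, 3.34, 4.48 and 3.0 RPKM in the 4 injured libraries of day 3, against 0.124, 0.0745, 0.0874 and 0.0609 RPKM in the uninjured ones. The groups did not overlap, and the uninjured values rest on 5 to 15 recovered reads a library over all days. Its injured means were 3.34, 2.29, 0.998, 1.04 and 1.05 RPKM on the 5 days and its differences 1.98, 1.54, 0.87, 0.91 and 0.88 (limma adjusted p at most 3.94e-07). Kcnma1 (chromosome 14, 23289431 to 24014491), the large-conductance BK channel of smooth muscle, was at 0.112, 0.0824, 0.103 and 0.0948 RPKM in the 4 injured libraries of day 3, against 0.119, 0.117, 0.0715 and 0.0718 RPKM in the uninjured ones. It was at 4.18, 3.82, 2.9 and 2.35 RPKM in the 4 injured libraries of day 7, against 0.117, 0.0219, 0.0392 and 0.0457 RPKM in the uninjured ones. The regions overlapped at day 3 and were far apart at day 7. The step of 1.95 ± 0.20 at day 7 within the injured region passed (limma adjusted p 2.05e-07), and the difference between regions stayed between 1.6 and 2.01 from day 7 on. Kcnt2, a sodium-activated channel of the Slick type, had injured means of 2.26 ± 0.48, 5.94 ± 1.6, 11.1 ± 1.29, 10.7 ± 1.8 and 12.4 ± 1.71 RPKM (SD, n = 4 each), against 1.76, 2.47, 2.84, 2.64 and 3.37 RPKM in the uninjured region. It did not pass at day 3 (0.23 ± 0.13, limma adjusted p 0.0929) and was higher from day 7 on, by 1.62 ± 0.13 at day 42. At day 7 all 6 smooth muscle markers and all 8 fibroblast markers were higher in the injured region, with medians of 1.6 and 1.86, against 4 of 6 and 6 of 8 at day 3, with medians of 0.81 and 0.62. The 4 measured neutrophil markers summed to 28.1 to 74.2 RPKM in injured libraries at day 3 and 7.14 to 14.8 RPKM at day 7. Macrophage and monocyte markers summed to 305 to 401 RPKM at day 3 and 416 to 636 RPKM at day 7. The part of these cell types in the Kcnma1, Kcnt2 and Kcnn4 values was not tested. Exons of Kcnma1 overlap a transcript of the opposite strand by up to 1016 bases.

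Among the sodium channel pore subunits, Scn4a, the pore known from skeletal muscle, was lower by -2.92, -2.22, -2.17, -2.45 and -2.09 on the 5 days. Scn7a (chromosome 2, 66673425 to 66784914) encodes Nax, a sodium-sensing relative of the sodium channels known from glia and Schwann cells. It was at 5.75, 4.82, 4.95 and 4.84 RPKM in the 4 injured libraries of day 3, against 13.2, 10.9, 10.6 and 11.7 RPKM in the uninjured ones, a difference of -1.05 ± 0.11 (limma adjusted p 1.14e-08). It was at 46.6, 46.2, 42 and 39.3 RPKM in the 4 injured libraries of day 42, against 12.7, 14, 11.5 and 11.9 RPKM in the uninjured ones, a difference of 1.72 ± 0.11 (limma adjusted p 6.19e-12). Every injured library was below every uninjured one at day 3, and every injured library was above them at day 42. Injured means were 5.09 ± 0.445, 17.3 ± 1.65, 29.8 ± 3.15, 36.1 ± 9.01 and 43.5 ± 3.5 RPKM on days 3, 7, 14, 21 and 42 (SD, n = 4 each), so that at day 42 Scn7a had the highest injured level of the channel genes. The 4 measured of 10 listed Schwann cell and neuronal markers summed to 20.9 to 25.9 RPKM in injured libraries at day 3. The uninjured libraries held 4.94 to 6.41 RPKM. At day 42 these sums were 15.8 to 18.7 RPKM in injured and 3.48 to 5.94 RPKM in uninjured libraries. The 8 fibroblast markers summed to 995 to 1346 RPKM in injured against 451 to 616 RPKM in uninjured libraries at day 3. At day 42 they summed to 1962 to 2134 RPKM against 459 to 627 RPKM. The part of these cell types in the Scn7a values was not tested. Scn3a, a neuronal pore, was low, at 0.167 to 1.78 RPKM in injured and 0.303 to 0.85 RPKM in uninjured libraries. It was called higher from day 14 on (0.50 ± 0.08 at day 14), and with quantile normalization its difference turned to -0.01, -0.21 and -0.07 on days 14, 21 and 42. The value of day 21 then passed in the opposite direction (limma adjusted p 0.0271). Scn2a1 (Scn2a in the annotation), another neuronal pore, was under the filter at 0.177 to 0.814 RPKM in injured and 0.106 to 0.171 RPKM in uninjured group means.

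Scn4b, a beta subunit that joins the pore of sodium channels, was lower on all 5 days. It was at 0.061, 0.0941, 0.0535 and 0.196 RPKM in the 4 injured libraries of day 3, against 6.94, 9.46, 10.3 and 12.5 RPKM in the uninjured ones. The injured libraries held 1 to 51 recovered reads over all days and the uninjured ones 309 to 1740, and the regions did not overlap on any day. The differences were -3.27, -2.76, -3.19, -3.12 and -3.09, and the F test over the 5 days did not pass in either region (limma adjusted p 0.0955 in the injured and 0.368 in the uninjured region).

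Among calcium channel pores, Cacna1c (chromosome 6, 118587240 to 119196418), the cardiac L-type pore Cav1.2, was at 5.07, 4.26, 2.95 and 5.22 RPKM in the 4 injured libraries of day 3, against 26.9, 21.3, 20.8 and 24.7 RPKM in the uninjured ones. The groups were far apart at day 3. By day 14 the injured mean was 7.83 ± 1.0 RPKM and the uninjured mean 15.5 ± 1.11 RPKM (SD, n = 4), and the difference was -0.91 ± 0.10, against -2.2 ± 0.10 at day 3. Cacna1d (Cav1.3), the L-type pore of pacemaker and atrial cells, was higher on all 5 days at a low level, 0.791 to 2.0 RPKM in injured against 0.256 to 0.38 RPKM in uninjured group means, by 1.12 ± 0.07 at day 7, and at day 42 the call was lost with quantile normalization (limma adjusted p 0.837). Its exons share up to 589 bases with Chdh on the opposite strand. Cacna1s, the L-type pore of skeletal muscle, was lower on all 5 days (-1.57, -1.11, -1.25, -1.34 and -1.52). Cacna1g, a T-type pore, was lower on days 3, 7 and 14, by -1.13 ± 0.07, -0.39 ± 0.07 and -0.34 ± 0.07, and did not pass on days 21 and 42 (-0.14 ± 0.07 and -0.10 ± 0.07), when its groups overlapped. The call of Cacna1g at day 14 was lost with rescaling to recovered reads (limma adjusted p 0.0524). Cacna1a, a neuronal pore, was under the filter with injured group means of 0.492 to 0.761 RPKM, against 0.253 to 0.375 RPKM in uninjured ones.

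The calcium channel beta subunits, which carry the pore to the membrane, moved apart from each other. Cacnb2, the main cardiac form, was lower on all 5 days by -1.54, -1.78, -1.39, -1.36 and -1.41. Cacnb3 (chromosome 15, 98630840 to 98644529) was higher on all 5 days and was at 9.81, 9.29, 10.2 and 9.41 RPKM in the 4 injured libraries of day 7, against 1.73, 1.44, 1.17 and 2.14 RPKM in the uninjured ones. No uninjured value of Cacnb3 came near the injured ones at day 7. Its injured means were 4.77, 9.68, 6.75, 5.98 and 4.23 RPKM on the 5 days. Cacnb1 was lower at day 3 (-0.30 ± 0.11, limma adjusted p 0.0143) and higher at day 42 (0.55 ± 0.11, limma adjusted p 8.86e-05). Its injured means climbed through 0.999, 1.35, 2.09, 2.3 and 2.74 RPKM, against 1.46, 1.37, 1.65, 1.7 and 1.56 RPKM in the uninjured region, and with quantile normalization the call at day 21 became -0.08. The call at day 3 was lost without day 3 mouse A7 or A8 and with rescaling to recovered reads, and that of day 21 without day 21 mouse A3 (limma adjusted p 0.0605, 0.0804, 0.434 and 0.125). Cacna2d1, the extracellular alpha2delta subunit, was lower by -1.71 ± 0.10 at day 3 and -1.05 ± 0.10 at day 42. Cacng7, of the gamma subunit family, was higher on all 5 days by 0.49 ± 0.11 at day 3 and 1.15 ± 0.11 at day 21, at a level of 1.61 to 3.07 RPKM in injured against 0.816 to 1.23 RPKM in uninjured group means, and its call at day 3 was lost with quantile normalization (limma adjusted p 0.342).

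The remaining members were the pacemaker channels, the ClC family and Kcnq1ot1. Hcn2, the main ventricular pacemaker channel, was lower on all 5 days by -1.93, -1.8, -1.96, -1.8 and -1.86. The 5 measured ClC members are chloride and proton exchangers of endosomes and lysosomes. Clcn5 was higher on all 5 days, with injured means of 4.94, 3.75, 2.6, 2.42 and 2.16 RPKM, against 0.903, 0.922, 0.755, 0.75 and 0.689 RPKM in the uninjured region, and differed by 1.64 ± 0.07 at day 3 and 0.90 ± 0.07 at day 42. Clcn7, the lysosomal exchanger, was higher on days 3, 7 and 21, most at day 7 (0.71 ± 0.08), and Clcn6 was higher on all 5 days, by 0.25 ± 0.08 at day 3, a value of -0.01 with quantile normalization. Clcn3 and Clcn4 were lower on all 5 days, by -0.77, -0.62, -0.53, -0.42 and -0.45 and -0.77, -0.18, -0.33, -0.35 and -0.32, and the value of Clcn4 turned to 0.0023 at day 7 with quantile normalization and to 0.01 at day 42 with rescaling to recovered reads. Both of these scalings also ended the other calls of Clcn4 after day 3 (limma adjusted p 0.082 to 0.972), and quantile normalization those of Clcn6 at days 7 and 14. The calls of Clcn3 and Clcn7 at day 21 were lost, one with rescaling (limma adjusted p 0.0596) and the other without day 21 mouse A3 (limma adjusted p 0.0578), and that of Clcn4 at day 7 without day 7 mouse A7 (limma adjusted p 0.0911). Kcnq1ot1, a long noncoding RNA read from the Kcnq1 locus on the opposite strand and known for silencing its neighbours on the paternal chromosome, was at 3.63, 3.55, 3.8 and 3.81 RPKM in the 4 injured libraries of day 21, against 0.451, 0.356, 0.628 and 1.02 RPKM in the uninjured ones. The regions did not overlap on any day, and the differences were 1.23, 1.05, 1.29, 1.56 and 0.79, opposite in direction to those of Kcnq1. Its exons share 121 bases with Kcnq1. In all, 18 of the 53 genes share exon sequence with a gene of the opposite strand, and without strand the reads of such pairs cannot be told apart.

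Set against the 12 cardiomyocyte markers, the 29 channel genes that were lower on all 5 days were spread on both sides of the marker median. These 29 were picked for being lower in these same values, whereas the markers were not, so the medians of the groups are not directly comparable. At day 3 the injured mean was 3.56% to 35.6% of the uninjured mean for the markers (median 8.31%) and 1.03% to 56.2% for the channel genes (median 15.8%). Below every marker were Scn4b at 1.03%, Kcnip2 at 1.19%, Kcnv2 at 2.45%, Kcnj3 at 2.89% and Scn4a at 3.32%. Among those above every marker were Clcn4 at 56.2%, Kcna5 at 55.4% and Clcn3 at 52.6%. At day 7 Kcna5 was at 12.5%, beside a marker median of 9.6%. By day 42 the medians were 22.8% for the markers and 25.1% for the channel genes, with Kcnip2 at 8.91% and Scn4b at 1.42%. The marker Myh7 set the upper end of the marker range at day 3, where the next was Tnnt2 at 17.5%. On days 14, 21 and 42 Myh7 went the other way, at 323%, 162% and 304% of its uninjured mean. On those days 0 of the 29 channel genes lay above every marker. These percentages are ratios of 2 means of 4 libraries and were not tested.

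Ratios of subunits within a library do not depend on scaling between libraries, and 15 pairs had both members above 0 in all 40 libraries. Of these, 12 differed between the regions of the same heart (sign-flip permutation test over 20 mice, 2-sided, 100000 resamples, adjusted over the 15), and 11 of the 15 are described here, 8 of them among the 12. Several of these ratios combine members whose own differences are given above. In Cacnb3 to Cacnb2, Cacna1d to Cacna1c and Clcn5 to Clcn3, the first gene was called higher and the second lower on all 5 days. The direction of these ratios was thus set by calls from the same libraries, and their tests add no separate support. The largest of those described was Cacnb3 to Cacnb2, whose log2 ratio differed by 3.94 ± 0.713, injured minus uninjured (SD, n = 20; adjusted permutation p 2.14e-05, raw p 1e-05, the smallest these resamples can give), and was higher in 20 of 20 mice. Cacna1d to Cacna1c stood 3.39 ± 0.94 higher, Clcn5 to Clcn3 2.6 ± 0.559 and Kcnd3 to Kcnd2 1.7 ± 0.556 higher, each in 20 of 20 mice and each with an adjusted permutation p of 2.14e-05. Kcnj3 to Kcnj5 was at -2.12 ± 0.553 and lower in 20 of 20 mice.

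Other ratios moved with the day. Kcnip2 to Kcnd2, the auxiliary subunit against its pore, was at -1.28 ± 1.01 over 20 mice and lower in 19 of them (adjusted permutation p 7.5e-05), with day means of -2.71, -1.73, -0.94, -0.67 and -0.36. Kcnj8 to Kcnj11 was at 1.14 ± 1.38 (higher in 16 of 20 mice, adjusted permutation p 0.00259), with day means of 2.53, 2.81, 0.36, 0.27 and -0.28. Cacnb2 to Cacna1c was at -0.48 ± 0.574 (lower in 16 of 20, adjusted permutation p 0.00329), although it was higher in 4 of 4 mice at day 3, by 0.55. The other 3 pairs did not pass: Kcne1 to Kcnq1 at 0.23 ± 1.07, Kcnj12 to Kcnj2 at -0.04 ± 0.722 and Cacna2d1 to Cacna1c at -0.04 ± 0.401 (adjusted permutation p 0.397, 0.808 and 0.688). These pooled values combine day means of opposite sign. On days 3, 7, 14, 21 and 42 the day means were -1.42, 0.26, 0.15, 1.01 and 1.15 for Kcne1 to Kcnq1, which was higher in 0 of 4 mice at day 3 and in 4 of 4 at day 21 and at day 42. They were -0.47, -0.85, 0.12, 0.55 and 0.45 for Kcnj12 to Kcnj2, higher in 0 of 4 mice at day 7 and in 4 of 4 at day 21. For Cacna2d1 to Cacna1c they were 0.63, -0.24, -0.26, -0.33 and -0.0062, higher in 4 of 4 mice at day 3 and in 0 of 4 at days 7, 14 and 21. The single days were not tested. With a pseudocount of 0.5 RPKM Kcne1 to Kcnq1 passed (0.62, adjusted permutation p 0.000495).

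**Figure D4:**
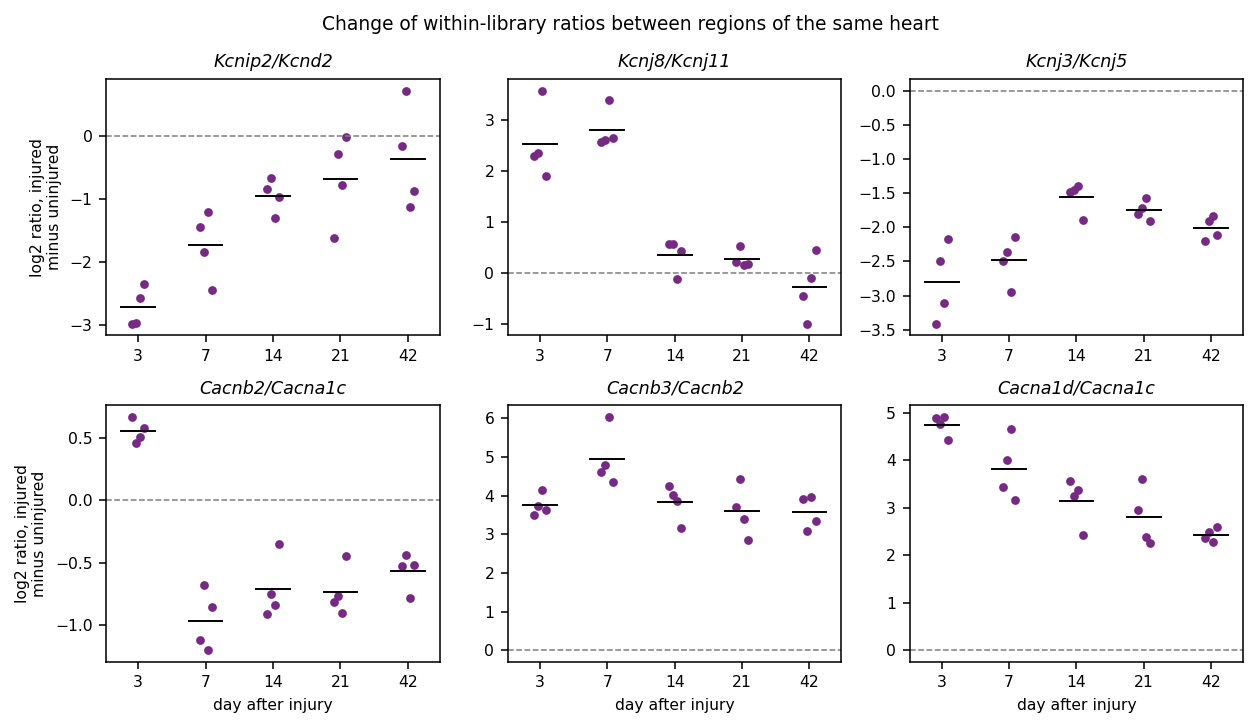
Log2 ratio of 2 channel transcripts within a library, injured minus uninjured region of the same heart, by day after injury for 6 pairs; each point is 1 mouse, the black bar is the mean of 4 mice, and the dashed line marks equal ratios in both regions. The day means of Kcnip2/Kcnd2 and Kcnj8/Kcnj11 lie nearer the line from day 14 on (at day 42 -0.36 and -0.28), although single mice of Kcnip2/Kcnd2 overlap between day 7 and later days, and the points of Cacnb3/Cacnb2 reach no lower than 2.87 on any day.

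Within the injured region, 43 of the 49 channel genes differed among the 5 days by the limma F test, where 87.6% of all genes did. From day 3 to day 7, 13 rose and 13 fell (all genes 27.7% and 32.7%). On the log2(RPKM + 1) scale the largest rises were those of Kcnj15, Kcnma1, Kcne4, Scn7a and Kcnt2, at 2.93 ± 0.24, 1.95 ± 0.20, 1.65 ± 0.18, 1.59 ± 0.13 and 1.07 ± 0.15, and among the largest falls were those of Kcna5, Kcnk3, Kcnq1 and Kcng2, at -1.25 ± 0.17, -0.98 ± 0.20, -0.92 ± 0.14 and -0.82 ± 0.16. From day 7 to day 14, 24 rose and 9 fell (all genes 21.9% and 21.2%), and 19 of the 24 were genes lower on all 5 days, as were 29 of the 49 tested. Kcnj11 rose by 1.56 ± 0.20, Kcnip2 by 1.32 ± 0.22, Kcnk3 by 1.0 ± 0.20 and Kcng2 by 0.93 ± 0.16 (limma adjusted p at most 0.000624). Of the 24 that rose, 7 had fallen at day 7. The share of all genes with that course was not computed, and both steps rest on the same day 7 libraries. The 12 cardiomyocyte markers summed to 2890.4 to 5012 RPKM in injured libraries at day 14 and 784 to 1439 RPKM at day 7. The part of these markers' cells in the rises at day 14 was not tested. Kcnn4, Kcnab2, Kcnk13, Kcnj15, Cacna1d and Cacnb3 were among the 9 that fell, at -0.70 ± 0.16, -0.70 ± 0.11, -0.62 ± 0.15, -0.62 ± 0.24, -0.49 ± 0.08 and -0.48 ± 0.11.

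From day 14 to day 21 limma called 0 channel genes in the injured region, where it called 0 of all genes, and 3 of the 49 had an unadjusted p under 0.05. From day 21 to day 42, Kcnd3 rose by 0.22 ± 0.08 (limma adjusted p 0.0469) and Kcnj15, Cacnb3 and Clcn7 fell, at -0.95 ± 0.24, -0.43 ± 0.11 and -0.34 ± 0.08, among 11.2% of all genes that rose and 13.6% that fell. With day 7 mouse A10 left out of the fit this step had 7 calls in place of 4, and the call of Kcnd3 did not pass in 13 of 29 alternative fits (adjusted p up to 0.145). The difference between regions changed over the 5 days for 44 of the 49 (limma F test, 74.3% of all genes). The 5 for which it did not pass were Hcn2, Kcnn1, Kcnj2, Cacnb2 and Scn4b, all lower on every day.

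In uninjured tissue, 30 of the 49 differed among the days by the limma F test, where 47.2% of all genes did. At day 7, 19 were lower than at day 3 and only Kcnt2 was higher, by 0.33 ± 0.12, a call lost in 10 of 30 alternative fits (all genes 14.5% and 10.4%). Cacna1c was at 12.2, 14.4, 15.3 and 17.6 RPKM at day 7, against 26.9, 21.3, 20.8 and 24.7 RPKM at day 3. Kcnk3 was at 24.5, 26.7, 30.2 and 22.8 RPKM at day 7, against 41.1, 41.4, 41.8 and 48.6 RPKM at day 3. In both genes the days did not overlap. The falls were -0.63 ± 0.10 for Cacna1c, -0.71 ± 0.10 for Kcnk3, -0.95 ± 0.20 for Kcnv2, -0.85 ± 0.15 for Scn4a, -0.66 ± 0.11 for Kcng2, -0.61 ± 0.13 for Kcnd2 and -0.61 ± 0.11 for Kcnj11 (limma adjusted p at most 0.00303). With values rescaled to recovered reads 13 were lower and 1 higher at this step, while the share of higher genes among all calls was 79.4%, against 41.7% as deposited. The summed cardiomyocyte markers of the uninjured libraries were 16259 to 20627 RPKM at day 7 and 22782 to 26021 RPKM at day 3, and their part was not tested.

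At day 14 Hcn2, Kcnip2, Kcnj8, Kcnj11 and Kcnj12 were higher than at day 7 in the uninjured region and 0 were lower (all genes 7.49% and 5.56%), with steps from 0.40 ± 0.11 for Kcnj12 to 0.52 ± 0.11 for Hcn2. Of the 49, 14 had an unadjusted p under 0.05 at this step in either direction, and the number called in place of 5 was 1 without day 7 mouse A7, day 7 mouse A12 or day 14 mouse A6, 3 without day 14 mouse A5 and 9 without day 14 mouse A4. The calls of Kcnip2, Kcnj12, Kcnj11 and Kcnj8 were lost in 5, 5, 4 and 3 of 30 alternative fits. From day 14 to day 21 limma called 0 channel genes, where it called 0.00878% of all genes higher and 0% lower, and 3 channel genes had an unadjusted p under 0.05. At day 42 Kcnq1ot1, Kcnj2, Kcnn2, Kcnd3 and Cacng7 were higher than at day 21, by 0.84 ± 0.15, 0.40 ± 0.14, 0.36 ± 0.09, 0.35 ± 0.07 and 0.30 ± 0.10, and Kcne4, Kcna5, Scn4a, Clcn7 and Kcnq1 were lower, at -0.63 ± 0.17, -0.56 ± 0.19, -0.44 ± 0.15, -0.25 ± 0.07 and -0.24 ± 0.08 (all genes 10.4% higher and 10.1% lower). Kcnq1ot1 was at 1.81, 2.23, 2.17 and 1.32 RPKM at day 42, against 0.451, 0.356, 0.628 and 1.02 RPKM at day 21. The days did not overlap, and the day 42 animals are those with B labels. In place of 10 calls at this step there were 4 without mouse B9 and 6 without day 21 mouse A10 or without mouse B1 or B3, and most of the calls were lost in some alternative fits. That of Scn4a was lost in 14 of 30, that of Cacng7 in 9 of 29, and those of Kcnq1, Kcna5, Kcnj2, Clcn7 and Kcne4 in 8, 7, 6, 2 and 1 of 30.

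**Figure D5:**
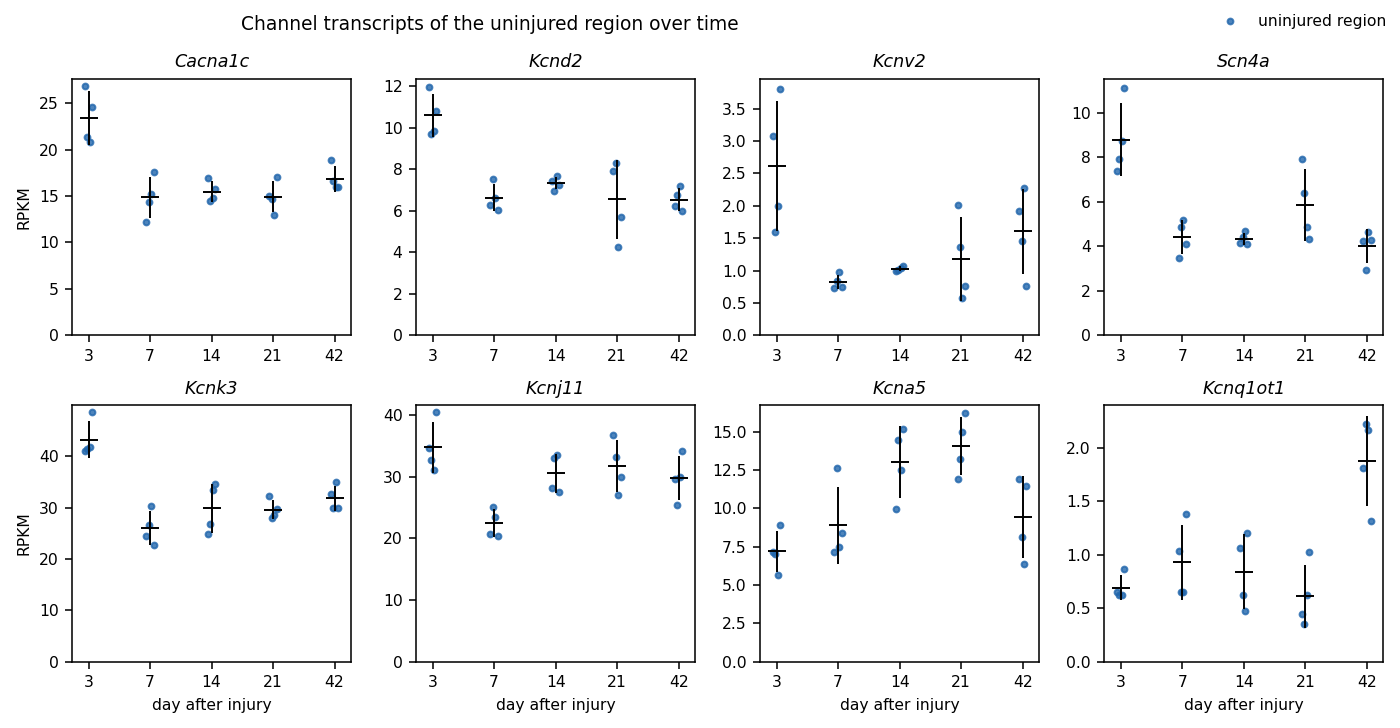
RPKM of 8 channel genes in the uninjured region by day after injury; points are single libraries and black bars give the mean and SD of 4 mice. Cacna1c, Kcnd2, Kcnv2, Scn4a, Kcnk3 and Kcnj11 are highest at day 3, Kcna5 is highest at day 21 (14.1 RPKM) and Kcnq1ot1 at day 42 (1.88 RPKM).

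Genes that work with these channels were counted in lists of their own. All 7 measured sodium channel partners were lower in the injured region at day 7, with a median of -1.39, led by Cav3 (caveolin of muscle, -2.88 ± 0.12) and Rangrf (a trafficking protein, -2.62 ± 0.10). Of 7 calcium channel regulators, 4 were lower and 1 higher at day 7, among them the beta1 adrenergic receptor Adrb1 (-1.99 ± 0.10) and the channel inhibitor Rrad (-1.97 ± 0.17), with Rem1, a relative of Rrad, higher by 0.48 ± 0.10; the next in rank upward, Gem, was at 0.28 ± 0.13 and did not pass. Of 17 tested Trp, Piezo and other cation channels, 14 were higher and 3 lower at day 7, with a median of 1.28, led by the stretch-activated channel Piezo2 (3.12 ± 0.10) and the proton channel Hvcn1 of immune cells (2.02 ± 0.07), while Tmem63b (-1.46 ± 0.09) was lower. Surface ion transporters split into 5 higher and 6 lower of 12 at day 7, among them Fxyd5 (1.72 ± 0.13), which was higher, and Fxyd1 (-2.07 ± 0.12), which was lower, both regulators of the sodium pump. Of 10 store-operated and release channels, 6 were higher, led by Orai2 (1.12 ± 0.07) and Itpr3 (0.82 ± 0.10), and 1 was lower, the ryanodine receptor Ryr2 (-2.91 ± 0.17), with Orai3 next at -0.14 ± 0.08, which did not pass. Of 11 other chloride and anion channels, 5 were higher, led by Ano6 (1.0 ± 0.06) and Clic1 (0.67 ± 0.10), and 4 lower, led by Clic5 (-1.96 ± 0.16) and Clic4 (-0.85 ± 0.06). The gap junction proteins Gja5 (1.46 ± 0.14) and Gja4 (0.80 ± 0.13) were higher, whereas Gja1 (-1.82 ± 0.15), the main connexin of the working ventricle, and Gjc1 (-0.77 ± 0.08) were lower. Akap9, the 1 measured potassium channel partner, did not pass at day 7 (0.07 ± 0.07). The limma adjusted p of the genes named in these lists was at most 0.000146, apart from Gem, Orai3 and Akap9, which did not pass. Of all genes tested, 43.6% were higher and 38.7% lower on that day.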

How the data were processed

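RNA-seq libraries of the injured and the uninjured region of 20 mouse hearts were analysed, 4 mice on each of 5 days. Per the labels' protocols, total RNA was extracted with RNeasy columns and libraries were made with an Illumina TruSeq kit. The deposited table, made by the authors, holds RPKM for 11450 genes in 40 libraries. Per the submitters' processing notes, STAR, edgeR and the mm10 build were used. For their roles, versions, the strand setting and the annotation, details were not given in the sources used here. How the genes of the table were chosen is not given either.

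RPKM are not counts, so tests were run with limma 3.58.1 (R 4.3.3, statmod 1.5.0; trend and robust moderation) on log2(RPKM + 1), for genes that reached 1 RPKM in 4 libraries or more. The regions were compared in 1 model of 40 libraries that had a term for each mouse and left 15 residual degrees of freedom, days within the 20 libraries of a region. The labels and the design text tie both libraries of a mouse to 1 heart, and their deviations from the group means correlated at 0.148 to 0.540, and in 20 of 20 mice this was the highest of the 4 with uninjured libraries of that day. Adjusted p are Benjamini-Hochberg values over 11390 genes. Whole reads were recovered by dividing each gene's RPKM, put on 1 library scale, by their common step, and 98.7% of values lay within 0.01 of a whole number. The recovered total of each library was divided by the library size implied by its RPKM and set relative to the first library. This quotient had a median of 1.001 in injured and 1.243 in uninjured libraries. RPKM do not give sampling error directly, and the recovered totals of 10087006 to 20434665 reads set the precision of low genes. Ratios used 20 paired mice (SciPy 1.17.1, NumPy 2.4.6). Scripts were tested on simulated data.

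Positions are those of GENCODE M21 on mm10, and promoters come from RefSeq (GRCm38.p6). Members were taken by symbol, and the members, lists, pairs and named genes were chosen with earlier results of these data known. The rule for names took, in each subfamily, the 2 highest genes in each region, on each day the 4 highest and 4 lowest differences among calls, genes called in both directions and genes of ratio pairs, and in partner lists the 2 largest differences either way at day 7. The other members are named as well, apart from a few channel genes, which are not reported here, like some partner genes and ratios. Alternatives changed the pseudocount, filter, scaling, moderation, mouse term, a covariate for Xist detection and the mice included.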

Additional observations from a re-analysis of the deposited data

Results flagged for a closer look

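The difference between regions changed over the 5 days for 44 of the 49 tested channel genes, where it changed for 74.3% of all genes (limma F test, adjusted p under 0.05). For Scn7a, lower at day 3 and higher from day 7 on, the adjusted p of that test was 7.916e-11, and for Cacnb1, lower at day 3 and higher on days 21 and 42, it was 0.0006618.

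Single libraries stood apart from the other 3 of their group, by Dixon's criterion at 95%, in 29 of 565 groups of 4 tested, or 5.13%, where chance alone gives about 1 in 20, and 25 of the 29 are described here. In mouse B12 at day 42, the uninjured library was at 1.67 RPKM for Cacna1g (others 1.0 to 1.06) and 11.5 RPKM for Kcnq1 (others 8.96 to 9.35). The injured library of day 7 mouse A10 was at 8.06 RPKM for Cacna2d1 (others 10.2 to 10.6). At day 42 the uninjured library of mouse B1 was at 0.526 RPKM for Clcn5 (others 0.728 to 0.757). In mouse A8 at day 3, the uninjured library was at 2.33 RPKM for Clcn6 (others 1.93 to 2.0), 48.6 RPKM for Kcnk3 (others 41.1 to 41.8) and 0.87 RPKM for Kcnq1ot1 (others 0.625 to 0.651). The uninjured library of day 21 mouse A3 was at 5.98 RPKM for Hcn2 (others 5.25 to 5.36). At day 21 the injured library of mouse A11 was at 2.82 RPKM for Kcna5 (others 2.0 to 2.12). In mouse A4 at day 21, the injured library was at 5.28 RPKM for Kcng2 (others 8.54 to 9.21), 2.42 RPKM for Kcnh2 (others 3.58 to 3.8) and 4.4 RPKM for Kcnk3 (others 7.34 to 7.94). The injured library of day 7 mouse A7 was at 4.67 RPKM for Kcnj2 (others 3.32 to 3.48). At day 21 the injured library of mouse A10 was at 2.99 RPKM for Kcnj2 (others 3.3 to 3.35). In mouse A9 at day 7, the uninjured library was at 21.2 RPKM for Kcnj8 (others 18.5 to 18.9). The uninjured library of day 14 mouse A5 was at 0.505 RPKM for Kcnk13 (others 0.304 to 0.329). At day 21 the injured library of mouse A3 was at 3.69 RPKM for Kcnk6 (others 5.13 to 5.4). In mouse B3 at day 42, the uninjured library was at 1.5 RPKM for Kcnk6 (others 2.41 to 2.47). The injured library of day 42 mouse B3 was at 1.24 RPKM for Kcnn1 (others 0.706 to 0.762) and 0.362 RPKM for Scn4b (others 0.032 to 0.0729). At day 3 the injured library of mouse A4 was at 5.75 RPKM for Scn7a (others 4.82 to 4.95). The log2 ratios of pairs, injured minus uninjured, that stood apart in a mouse were -0.38 for Kcnj12/Kcnj2 in day 42 mouse B12 (others 0.69 to 0.77), -1.89 for Kcnj3/Kcnj5 in day 14 mouse A11 (others -1.48 to -1.39), 3.39 for Kcnj8/Kcnj11 in day 7 mouse A10 (others 2.58 to 2.65) and 0.53 for Kcnj8/Kcnj11 in day 21 mouse A4 (others 0.16 to 0.20).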

How the results depend on the processing

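Of 332 calls of single channel genes, 270 held under every alternative tried, and of 9854 alternative values 9601 stayed on the same side of the threshold, 243 were lost and 10 turned round, of which only Scn3a at day 21 passed in the opposite direction (limma adjusted p 0.0271). With quantile normalization the difference turned to -0.012 for Clcn6 at day 3, 0.0023 for Clcn4 at day 7, -0.0072, -0.205 and -0.0681 for Scn3a and -0.17, -0.18 and -0.16 for Kcnab2 on days 14, 21 and 42, and -0.0792 for Cacnb1 at day 21. With rescaling to recovered reads Clcn4 turned to 0.0116 at day 42. The cause was not tested.

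Asking for a log2 difference of at least 1 left 10, 8, 8 and 6 of the 49 tested channel genes higher on days 7, 14, 21 and 42. Of all genes, 14.0%, 12.4%, 13.4% and 10.3% were higher at that threshold on these days. Counts of lower channel genes at that threshold are not given here. A filter at 5 RPKM, which tests fewer genes, left 5, 8, 7, 8 and 7 higher on the 5 days, 21 changed in the injured region at day 14 against day 7, 28 over all days there, 6 in the uninjured region at day 42 against day 21, and 28 whose region difference changed. With Xist detection as a covariate 8 channel genes changed in the uninjured region at day 14 against day 7. With only the libraries of both days in the fit, which has fewer samples, 4 changed at day 42 against day 21. When each mouse was left out in turn, the number changed ranged from 1 to 9 in the uninjured region at day 14, from 4 to 14 there at day 42, and from 3 to 7 in the injured region at day 42, each against the day before it in the series. The log2 ratio of Kcne1 to Kcnq1 was 0.62 with a pseudocount of 0.5 (adjusted permutation p 0.000495).

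Without the mouse as a block, 13 channel genes were higher and 32 lower at day 3 and 44 changed their region difference, as with it. The block moved the counts at day 14, where 19 were higher without it, against 17 with it, and at day 42, where 28 were lower without it, against 29, since the call of Kcne1 was lost. Unpaired permutation gave the same calls for the 11 ratios described. No replicate block could be fitted within a region, where each mouse has 1 library. Rescaling to recovered reads moved the median region difference of all genes to 0.18 to 0.36 and the share of higher genes among calls to 67.7% at day 3, against 52.7% as deposited, and to 60.2%, 65.1%, 65.7% and 68.5% on the later days, against 53%, 51.2%, 51.3% and 51.1%. Members under the filter or near a few reads a library, such as Scn4b, Kcnv2 and Kcnn4, are limited by depth.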
